A study of Mus musculus with 2 samples.

Results

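The 10 receptors described here are the lipid-sensing and steroid nuclear receptors Nr1h2, Nr1h3, Rxra, Rxrb, Pparg, Ppard, Nr3c1, Nr1d1, Nr1d2 and Vdr. They were chosen by gene symbol, and all 10 were found among the 55536 mouse genes of the deposited tables. Polyadenylated RNA had been sequenced from macrophages that were grown from the bone marrow of C57BL/6J mice, cultured cells that differentiate from marrow precursors. Both libraries belonged to 1 group, treated at 100 ng/ml for 120 minutes. One label field names the agent as Lipid A, the membrane anchor of bacterial lipopolysaccharide, and others name lipoprotein A, and the conflict could not be settled here. No untreated library was analysed here, so no level below says what the treatment did. The labels name replicate 1 and replicate 2 and list the same donor record for both. Whether they are separate animals or cultures is not stated, so the spread between them may not be that between animals. With 1 library on each side no difference was tested.

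Nuclear receptors are transcription factors switched by small fat-soluble ligands. The liver X receptors LXRα (Nr1h3) and LXRβ (Nr1h2) bind oxysterols, and the peroxisome proliferator-activated receptors PPARγ (Pparg) and PPARδ (Ppard) bind fatty acids and their derivatives. These receptors and the vitamin D receptor (Vdr) work as heterodimers with a retinoid X receptor, RXRα (Rxra) or RXRβ (Rxrb). The glucocorticoid receptor (Nr3c1) waits in the cytoplasm on heat shock chaperones until hormone binds, and REV-ERBα (Nr1d1) and REV-ERBβ (Nr1d2) are heme-binding repressors of the circadian clock. In macrophages the LXRs and PPARs are known for cholesterol export and lipid handling, and several of the 10 are known to repress inflammatory genes.

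Replicate 1 held 33272561 counts and replicate 2 held 50266361. All 7 macrophage markers reached 1 TPM (a level per transcript length, scaled to the same total in each library) in both libraries, and they summed to 18315 TPM in replicate 1 and 23911 TPM in replicate 2. Most of this sum was Lyz2, at 13517.5 TPM in replicate 1 and 19283.1 TPM in replicate 2. Cd68 had 3236 and 2939 TPM, Adgre1 681 and 707 TPM, and Csf1r 628 and 728 TPM. The 8 granulocyte markers summed to 517 TPM in replicate 1 and 67.2 TPM in replicate 2, with S100a9 at 266 and 41.2 TPM and Ngp at 67.5 and 3.21 TPM. The 5 dendritic cell markers summed to 8.12 and 3.01 TPM and the 5 osteoclast markers to 152 and 73.3 TPM. Most of the osteoclast sum was Acp5, at 146 TPM in replicate 1 and 67.4 TPM in replicate 2, whereas Ctsk had 4.73 and 5.59 TPM, Ocstamp 0.04 TPM in both, and Calcr 0 counts in both. The 4 T cell markers summed to 0.61 and 0 TPM, the 4 B cell markers to 2.53 and 1.48 TPM and the 5 stromal markers to 0.84 and 0.54 TPM. Of 5 adipocyte markers 4 had 0 counts in both libraries.

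Of the 10 receptors, 9 reached 1 TPM in both libraries, and their order by mean level was Nr1h2, Nr1h3, Nr3c1, Pparg, Rxra, Nr1d2, Rxrb, Ppard and Nr1d1, with Vdr last and near 0. The median over the 10 was 15.6 TPM, beside 14.1 TPM over the 10285 genes that reached 1 TPM in both libraries. In this order only the neighbours Nr1h2 and Nr1h3, Nr1h3 and Nr3c1, and Pparg and Rxra had ranges that overlapped. The 10 genes summed to 240.04 TPM in replicate 1 and 191.96 TPM in replicate 2. In bulk RNA, fewer cells that express a gene and less RNA per cell cannot be told apart.

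**Figure D1:**
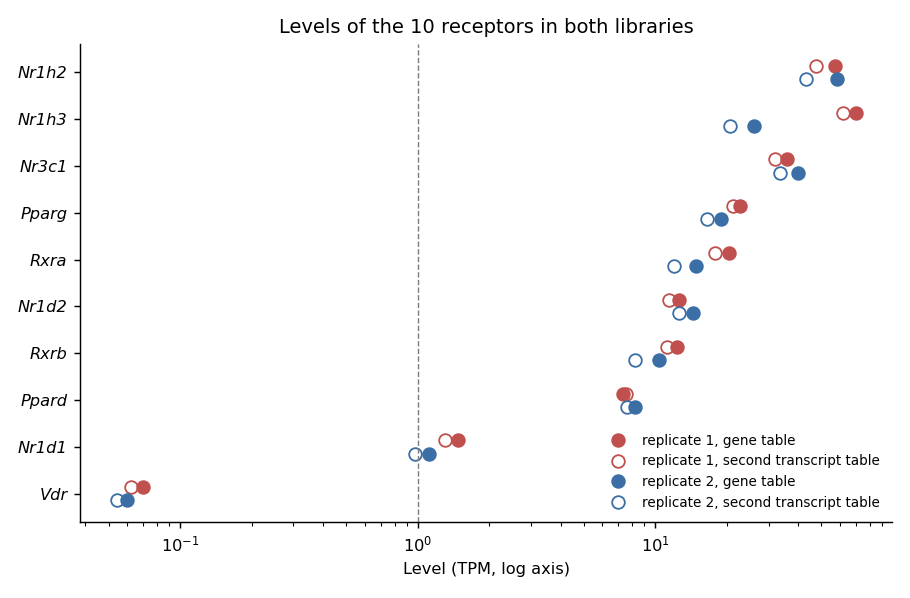
Level of each receptor in TPM (log axis), with replicate 1 above replicate 2 for each gene; filled circles are the deposited gene table, open circles the second deposited transcript table summed by gene, and the dashed line marks 1 TPM. Nr1h3 is the receptor whose libraries lie farthest apart, at 69.7 and 26.1 TPM, and Vdr lies lowest in both tables.

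Nr1h2, the LXRβ gene (chromosome 7, 44549616 to 44553951 in mm10, minus strand), was the highest of the 10 on average. It had 57.4 TPM in replicate 1 and 58.0 TPM in replicate 2 (57.7 ± 0.445, SD, n = 2), from 1939 and 2817 counts, and ranked at 2051 of the 10285 genes. Its level was nearly equal in the libraries, with a log2 ratio of CPM (counts scaled by library size with TMM factors, which set most genes near equality), replicate 1 over replicate 2, of -0.09 (95% exact interval -0.18 to -0.01), or 0.06 when scaled by total count without those factors. The intervals given for log2 ratios are Clopper-Pearson intervals on the counts of the 2 libraries and cover counting error only.

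Nr1h3, the LXRα gene (chromosome 2, 91184061 to 91202834, minus strand), had 69.7 TPM in replicate 1 and 26.1 TPM in replicate 2 (47.9 ± 30.9, SD, n = 2), from 2382 and 1302 counts. The libraries' credibility intervals, as the authors deposited them, ran from 64.9 to 70.9 TPM in replicate 1 and from 24.4 to 27.7 TPM in replicate 2, and did not overlap. Replicate 1 was 2.49-fold higher in CPM, a log2 ratio of 1.32 (1.22 to 1.42). Among 10445 genes with a mean count of at least 50, 197 differed by as much in either direction, and 128 were as far to the side of replicate 1.

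The order of the LXR genes therefore differed between the libraries. The level of Nr1h3 was 1.21 times that of Nr1h2 in replicate 1 and 0.449 times in replicate 2, and in the second transcript table the ratios were 1.30 and 0.481. Together the LXR genes had 127 TPM in replicate 1 and 84.1 TPM in replicate 2. The granulocyte and dendritic cell marker sums given above were also higher in replicate 1, as was the osteoclast sum through Acp5 but not Ctsk, and their part in the Nr1h3 difference was not tested.

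Nr1h3 was the only 1 of the 9 receptors with a mean count of at least 50 that differed 2-fold or more between the libraries. Across all 10445 genes 3.96% differed 2-fold or more, 2.23% to the side of replicate 1 and 1.73% to the side of replicate 2. At 1.5-fold it was again the only 1, and 14.6% of all genes passed that threshold. The median log2 ratio of the 9 was 0.12, beside -0.01 over all genes. Scaling by total count instead moved the median of all genes to 0.14, and the genes at 2-fold or more were then 372 higher and 117 lower in replicate 1, beside 233 and 181, and with TPM + 1 they were 164 and 66. With only 9 receptors, 1 past the threshold says little about the set.

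**Figure D2:**
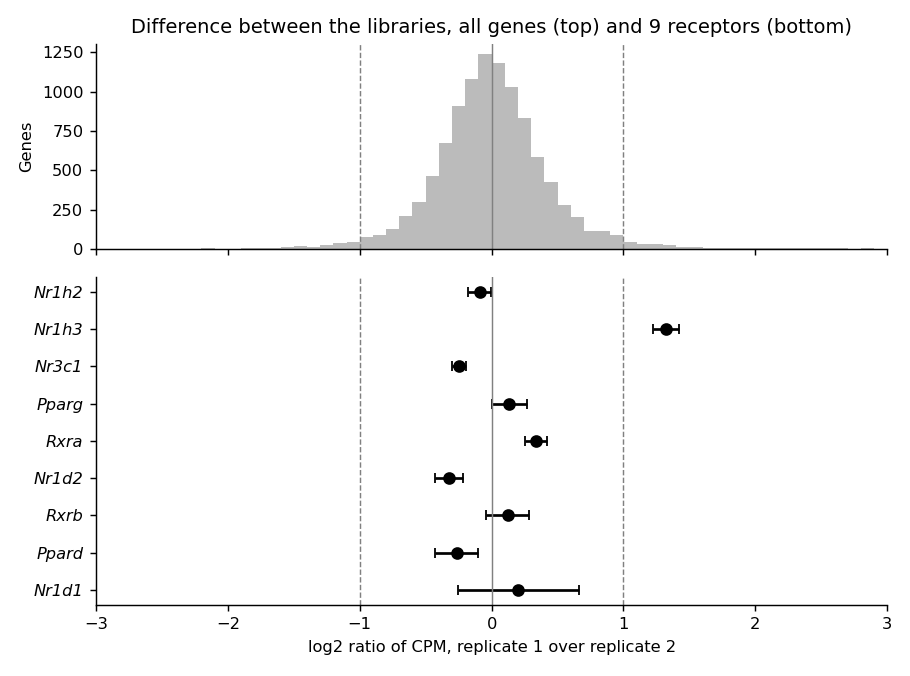
Log2 ratio of CPM, replicate 1 over replicate 2; the upper panel counts all genes with a mean count of at least 50 in bins of 0.1, and the lower panel gives the 9 receptors that reached it, with 95% exact intervals for counting error. Dashed lines mark 2-fold: Nr1h3, at 1.32, is the only receptor beyond them, and the other 8 lie between -0.32 and 0.34.

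Nr1h2 was also the only 1 of the 9 whose leading transcript held less than 50% of its level on average, and it stayed under 50% in each library. Rxrb lay close, with a leader at 51.7% on average and 46.3% in replicate 2. In the second transcript table the leader of Rxrb averaged 43.9%, so Nr1h2 was not alone there. Of the 18 annotated transcripts of Nr1h2, 15 had counts. Nr1h2-201 held 44.3% of the gene's TPM in replicate 1 and 43.4% in replicate 2 (43.9 ± 0.658%, SD, n = 2), Nr1h2-202 held 22.2% and 18.7%, and Nr1h2-203 held 14.5% and 19.2%. In the second transcript table Nr1h2-201 held 44.5% and 44.4%, so that Nr1h2 lacked a leader over 50% did not depend on the quantification.

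Much of this split was between proteins that differ by 3 residues. Nr1h2-201, Nr1h2-204 and Nr1h2-213 encode 446 residues and together held 46.3% in replicate 1 and 44.7% in replicate 2 (45.5 ± 1.20%, SD, n = 2). Nr1h2-202 and Nr1h2-203 encode 443 residues and held 36.8% and 37.9% (37.3 ± 0.799%, SD, n = 2). The longer form exceeded the shorter in both libraries and in both quantifications. Transcripts with an incomplete coding sequence held 10.5% and 14.9%, and those with none held 6.45% and 2.53%.

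The difference between the LXRβ forms is 1 block of 9 bases, at chromosome 7, 44552237 to 44552245 (mm10, minus strand), inside the coding sequence. Both sequences are shown 5′ to 3′ with 15 bases on each side, since the shares above rest on these bases, and the capitals mark the block. They come from the GENCODE M21 transcripts.
Nr1h2-201: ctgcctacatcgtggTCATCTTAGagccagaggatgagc
Nr1h2-202: ctgcctacatcgtggagccagaggatgagc

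Nr1h3 showed no such split. Nr1h3-201 held 61.8% of its TPM in replicate 1 and 69.1% in replicate 2, but it shares its 445-residue protein with Nr1h3-202 and Nr1h3-204. The 445-residue form held 95.8% and 95.9%, and a form of 385 residues held 1.83% and 1.89%. The shares of the LXRα protein forms were thus nearly equal in the 2 libraries, although the gene's level differed between them. Gm13783, a noncoding transcript on the same strand within the gene's span, had 0.30 TPM in replicate 1 and 0.07 TPM in replicate 2, and the small nuclear RNA Gm23390 had 0 counts in both.

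**Figure D3:**
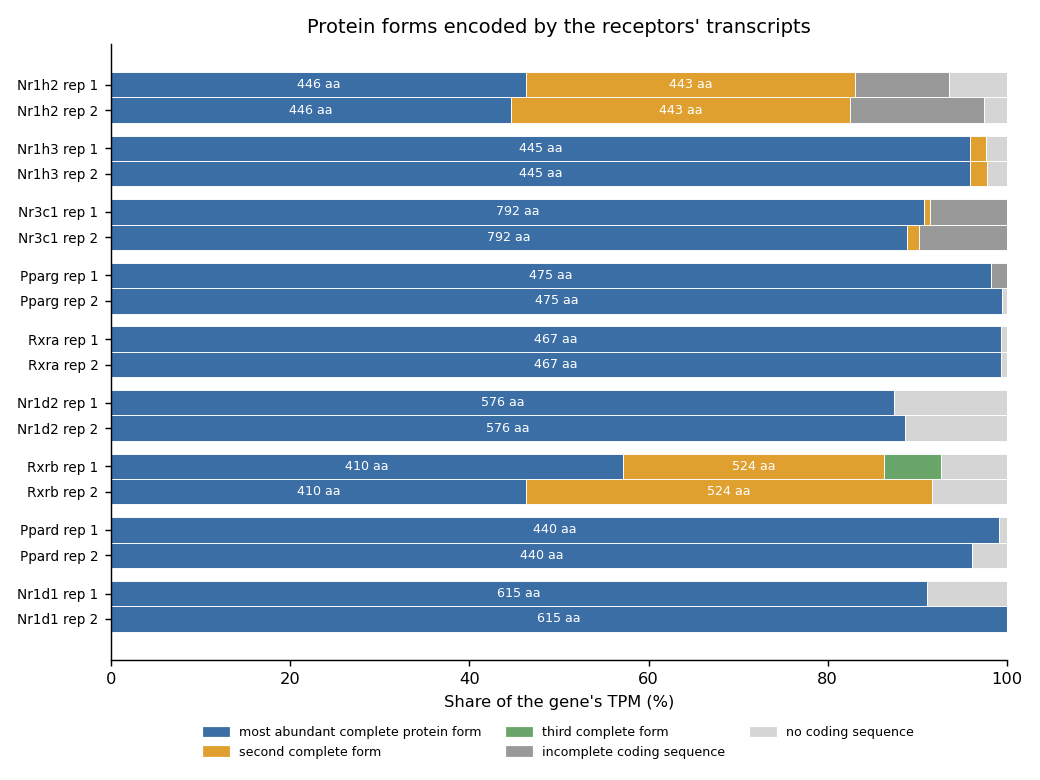
Share of each receptor's TPM held by transcripts of each encoded protein (labelled with its length in residues, aa), replicate 1 above replicate 2; dark grey is incomplete coding sequence and light grey none. In Nr1h2 and Rxrb no bar of 1 protein passes 60%, and the other 7 have 1 protein above 85% in both libraries. In the second transcript table, not drawn, Ppard (83.8% in replicate 1 and 84.7% in replicate 2) and Nr1d2 (82.6% and 79.3%) were under 85%. Nr3c1 was under it there in replicate 2 (84.0%).

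All 18 genes of a list of LXR targets reached 1 TPM in both libraries, with a median of 45.2 TPM. Apoe, the lipid carrier apolipoprotein E, was at 11769 TPM in replicate 1 and 10768 TPM in replicate 2. Cd5l, a secreted macrophage protein, had 1127 and 583 TPM, Lpl (lipoprotein lipase) had 860 and 444 TPM, and Pltp (phospholipid transfer protein) had 743 and 592 TPM. Abca1 and Abcg1, the cholesterol exporters named here after their values were seen, had 188 TPM (Abca1) and 54.7 TPM (Abcg1) in replicate 1, and 152 and 50.3 TPM in replicate 2.

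The LXR targets were not, as Nr1h3 was, to the side of replicate 1. Of 17 with a mean count of at least 50, 6 had a log2 ratio above 0 and 11 below, none was 2-fold or more higher in replicate 1, and 4 were 2-fold or more lower, beside 1.73% of all genes that were 2-fold or more lower, and 5092 above 0 and 5353 below. The median log2 ratio was -0.18. Scaled by total count, 8 of the targets lay above 0 and 9 below, beside 6857 and 3588 of all genes, and 1 was 2-fold or more lower. The farthest was Scd1, a fatty acid desaturase, with 1.49 TPM in replicate 1 and 6.06 TPM in replicate 2 (log2 ratio -1.88). The other 3, named after their values were seen, were Arl4c at -1.10, Scd2 at -1.02 and Apoc2, which lay just past 2-fold with 27.2 TPM in replicate 1 and 50.7 TPM in replicate 2. Abca1 and Abcg1 had log2 ratios of 0.20 and 0.02.

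Among the shared partners, Rxra (chromosome 2, 27676440 to 27762957, plus strand) had 20.4 TPM in replicate 1 and 14.9 TPM in replicate 2 (17.7 ± 3.87, SD, n = 2), from 2112 and 2279 counts. Rxrb (chromosome 17, 34031812 to 34038399, plus strand) had 12.4 and 10.4 TPM (11.4 ± 1.44, SD, n = 2), from 560 and 702 counts. The log2 ratio was 0.34 (0.25 to 0.42) for Rxra and 0.12 (-0.04 to 0.28) for Rxrb, and Rxra was the higher in each library. Rxrg, which encodes the third retinoid X receptor and is named after its values were seen, had 0 counts in both libraries, where a count of 0 allows up to 0.0902 CPM in replicate 1 and 0.0597 CPM in replicate 2. The second transcript table put Rxrg at 0.020 and 0.012 TPM. The RXR pair summed to 32.8 and 25.3 TPM, beside 127 and 84.1 TPM for the LXR pair.

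Rxra came from essentially 1 protein form, the 467-residue product of Rxra-201 and Rxra-206, with 99.3% of its TPM in replicate 1 and 99.4% in replicate 2. Rxrb was split. Rxrb-202, which encodes 410 residues, held 57.2% in replicate 1 and 46.3% in replicate 2 (51.7 ± 7.67%, SD, n = 2). Rxrb-201, which encodes 524 residues and starts 589 bases upstream of Rxrb-202, held 29.1% and 45.3% (37.2 ± 11.5%, SD, n = 2).

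Which Rxrb form led depended on the library and the quantification. In the second transcript table Rxrb-202 held 48.9% in replicate 1 and 38.8% in replicate 2, and Rxrb-201 held 33.3% and 53.8%, so the leader there was Rxrb-202 in replicate 1 and Rxrb-201 in replicate 2. Rxrb-203, which encodes 414 residues, held 6.33% in replicate 1, from 39.25 counts, and 0% in replicate 2.

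Besides their starts, the Rxrb forms differ by a block of 12 coding bases, equal to 4 codons, at chromosome 17, 34036861 to 34036872 (mm10, plus strand). Rxrb-201 and Rxrb-203 carry it and held 35.5% in replicate 1 and 45.3% in replicate 2, and Rxrb-202 and Rxrb-207 lack it and held 57.2% and 46.3%. The sequences around the block, from the GENCODE M21 transcripts, are shown 5′ to 3′ with the block in capitals, since it separates the forms that exchange the lead.
Rxrb-201: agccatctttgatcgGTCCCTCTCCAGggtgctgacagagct
Rxrb-202: agccatctttgatcgggtgctgacagagct

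Pparg (chromosome 6, 115360951 to 115490399, plus strand), the receptor known best from fat cells and from alveolar macrophages, had 22.8 TPM in replicate 1 and 18.8 TPM in replicate 2 (20.8 ± 2.79, SD, n = 2), from 842 and 1046 counts. Ppard (chromosome 17, 28232700 to 28301474, plus strand) had 7.30 and 8.26 TPM (7.78 ± 0.679, SD, n = 2), from 494 and 809 counts. Their log2 ratios were 0.13 (0.00 to 0.27) and -0.26 (-0.43 to -0.10), so neither approached 2-fold. Pparg was the higher of the pair in each library, and Ppara, the third PPAR gene, named after its values were seen, had 0 counts in both.

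The Pparg transcripts had different starts and 1 protein. Pparg-202 and Pparg-204 encode the same 475 residues, the length of PPARγ1, and together held 98.2% of the gene's TPM in replicate 1 and 99.5% in replicate 2. In the second transcript table they held 91.4% and 87.7%. Pparg-204 held 58.3% and 54.8% and Pparg-202 held 39.9% and 44.7%, whereas in the second transcript table Pparg-202 led with 48.1% and 55.3% against 43.3% and 32.4% for Pparg-204. Pparg-201, the 505-residue form, whose length is that of the fat-cell form PPARγ2, had 0 counts in both libraries, which allows up to 0.356% of the gene's counts in replicate 1 and 0.287% in replicate 2. The antisense gene Gm44079 inside the Pparg span also had 0 counts. Ppard-201, the 440-residue form, held 99.1% and 96.1% of the Ppard level. In the second transcript table it held 83.8% and 84.7%, and transcripts with no coding sequence held 14.6% and 15.3%.

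The bases upstream of the 3 Pparg starts are shown because Pparg-202 and Pparg-204 had counts and Pparg-201 had none. Whether these bases bear on the counts was not tested. They come from RefSeq promoter windows on GRCm38.p6, plus strand, of 250 bases before and 50 after each RefSeq start, and each is shown 5′ to 3′ up to the first annotated start. The first is chr6:115360894-115360950 (57 bases, before Pparg-202), the second chr6:115362099-115362291 (193 bases, before Pparg-204), and the last chr6:115421816-115422065 (250 bases, before Pparg-201). Capitals mark GGGCGG (a GC box) and GAGGAA (the core of PU.1 sites) on either strand.
Pparg-202 start: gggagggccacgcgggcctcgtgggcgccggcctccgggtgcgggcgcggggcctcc
Pparg-204 start: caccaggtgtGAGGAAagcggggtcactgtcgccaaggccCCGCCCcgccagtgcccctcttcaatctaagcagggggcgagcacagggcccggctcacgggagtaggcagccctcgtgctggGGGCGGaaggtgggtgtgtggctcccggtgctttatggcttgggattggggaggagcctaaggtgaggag
Pparg-201 start: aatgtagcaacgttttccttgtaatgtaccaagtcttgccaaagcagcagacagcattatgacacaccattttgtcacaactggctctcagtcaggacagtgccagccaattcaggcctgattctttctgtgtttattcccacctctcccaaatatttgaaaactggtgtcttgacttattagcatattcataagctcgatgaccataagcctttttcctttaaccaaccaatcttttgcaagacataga

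The whole windows of the starts with counts were 80.3% (Pparg-202) and 62.7% (Pparg-204) G and C, and that of Pparg-201 was 40.3%, beside a median of 52.7% over all 32817 promoter windows. GGGCGG occurred in the first 2 windows and AGGTCA, the hexamer that many nuclear receptors bind, in the same 2. In the Pparg-202 window neither lay within the 57 upstream bases shown. The Pparg-204 window also held GAGGAA and TATAAA, but its AGGTCA and TATAAA did not lie within the 193 upstream bases shown. None of the 6 motifs searched occurred in the Pparg-201 window. Over all windows GGGCGG was found in 35.6%, GAGGAA in 28.3%, AGGTCA in 16.3%, TATAAA in 13.6%, TGANTCA (an AP-1 site) in 7.81% and CACGTG (an E-box) in 7.15%. Of the 14 windows of 9 receptors, the table having none for Nr3c1, 8 held GGGCGG, 4 held GAGGAA, 4 held AGGTCA, 1 held TATAAA and none held TGANTCA or CACGTG. Both strands were searched and overlapping matches were allowed, and the windows of 1 gene can overlap.

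Genes that PPARs are known to drive were to the side of replicate 1. Of 12 of the 13 listed with a mean count of at least 50, all 12 had a log2 ratio above 0 (11 with DESeq2 size factors or in the second transcript table) and 5 were 2-fold or more higher in replicate 1. The median log2 ratio was 0.55. By comparison, 2.23% of all genes were 2-fold or more higher in replicate 1, and of all 10445 genes 5092 lay above 0 and 5353 below.

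The farthest apart was Cd36, a scavenger receptor and fatty acid transporter, with 719.69 TPM in replicate 1 and 163.89 TPM in replicate 2 (log2 ratio 2.02). Fabp4, a fatty acid carrier, had 640 and 206 TPM (1.53), and Plin2, a lipid droplet coat protein, had 1568 and 667 TPM (1.17). Fabp5, the related carrier and highest gene of the list, had 4289 and 3268 TPM (0.28). The other 2 genes past 2-fold, named after their values were seen, were Angptl4 at 1.40 and Mgll at 1.24. Cpt1a, an enzyme of fatty acid oxidation named likewise, was at 0.00 and was counted as above 0.

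These differences stood beside a Pparg level that differed by a log2 ratio of 0.13 and a Ppard level lower in replicate 1. The adipocyte markers were at or near 0, with 4 of 5 at 0 counts in both libraries and a sum of 0.04 TPM in replicate 1 and 0 TPM in replicate 2. The higher granulocyte and dendritic cell sums and the higher Acp5 of replicate 1 stand beside this result too, and their part was not tested. Pdk4, a kinase that restrains glucose oxidation and a PPAR target, named after its values were seen, had 0 counts in both libraries.

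**Figure D4:**
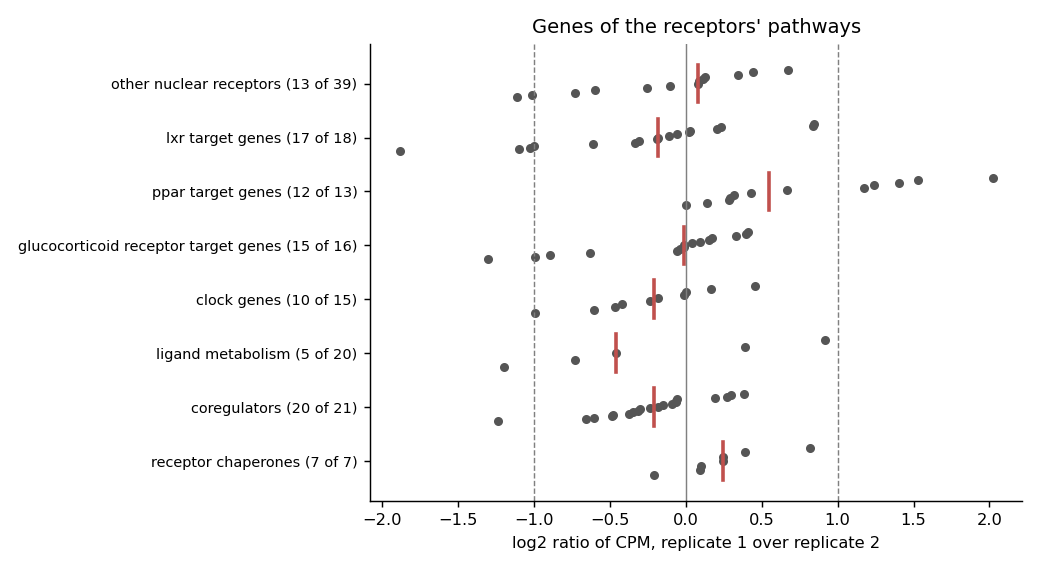
Log2 ratio of CPM, replicate 1 over replicate 2, for each listed gene with a mean count of at least 50 (how many of how many in brackets); red bars are list medians and dashed lines mark 2-fold. The PPAR targets are the list with no gene below 0 under the scaling drawn (median 0.55), and the LXR targets reach from -1.88 to 0.84.

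Nr3c1, the glucocorticoid receptor (39410545 to 39519421 on chromosome 18, minus strand), was the highest steroid receptor. It had 35.9 TPM in replicate 1 and 39.9 TPM in replicate 2 (37.9 ± 2.86, SD, n = 2), and with 4531 and 7336 counts it was the most deeply counted of the 10. Its log2 ratio was -0.25 (-0.30 to -0.19). Nr3c1-204 held 87.1% and 84.7% of its TPM, and the 792-residue form that 3 transcripts share held 90.7% and 88.8%. A form of 793 residues (Nr3c1-202) held 0.66% and 1.35%, from 11.19 and 37.63 counts.

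Of 16 listed glucocorticoid receptor targets 13 reached 1 TPM in both libraries, with a median of 46.4 TPM over the 16. The highest were Nfkbia, the inhibitor of NF-κB, at 1081 TPM in replicate 1 and 1048 TPM in replicate 2, Anxa1, the anti-inflammatory protein annexin A1, at 741 and 517 TPM, and the metallothioneins Mt1 at 564 and 463 TPM and Mt2 at 324 and 269 TPM. Nfkbia is also a well-known NF-κB target, so its level is not a measure of the glucocorticoid receptor. Of 15 with a mean count of at least 50, 7 lay above 0 and 8 below, with a median log2 ratio of -0.01. Of all 10445 genes, 5092 lay above 0 and 5353 below. Scaled by total count the numbers were 11 and 4, beside 6857 and 3588 of all genes. Ddit4, a stress-responsive inhibitor of mTOR, was the only 1 past 2-fold (2 genes passed with DESeq2 size factors), with 2.62 TPM in replicate 1 and 6.00 TPM in replicate 2 (-1.30). Across all genes 3.96% differed 2-fold or more in either direction.

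All 7 chaperone genes of the steroid receptor complex reached 1 TPM in both libraries, with a median of 104.5 TPM. Hspa8 (the constitutive HSP70) had 1402 TPM in replicate 1 and 1504 TPM in replicate 2, and Hsp90ab1 and Hsp90aa1 (the HSP90 genes) had 477 and 374 TPM and 173 and 97.1 TPM. Stip1, the adaptor between HSP70 and HSP90, had 117 and 91.7 TPM. Of the 7, 6 lay above 0 and 1 below, none was 2-fold apart, and the farthest was Hsp90aa1 at a log2 ratio of 0.82. Of all genes 5092 lay above 0 and 5353 below, and 3.96% were 2-fold or more apart.

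Of the REV-ERB genes, Nr1d2 was far higher than Nr1d1. Nr1d2 (chromosome 14, 18204054 to 18239127, minus strand) had 12.6 TPM in replicate 1 and 14.4 TPM in replicate 2 (13.5 ± 1.24, SD, n = 2), from 1119 and 1907 counts. Nr1d1 (chromosome 11, 98767932 to 98775333, minus strand) had 1.48 and 1.12 TPM (1.30 ± 0.255, SD, n = 2), from 76 and 90 counts. The level of Nr1d2 was 8.53 times that of Nr1d1 in replicate 1 and 12.8 times in replicate 2, so REV-ERBβ RNA was the higher in each library.

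The log2 ratio between libraries was -0.32 (-0.43 to -0.21) for Nr1d2 and 0.20 (-0.26 to 0.66) for Nr1d1, whose interval includes 0. Nr1d1 was the lowest receptor that passed 1 TPM, at rank 10132 of 10285, and in the second transcript table it had 1.31 TPM in replicate 1 and 0.97 TPM in replicate 2. Its last 1075 bases (98767932 to 98769006) overlap Thra, a thyroid hormone receptor gene on the other strand, which had 6.73 and 4.50 TPM. The sources used here do not state whether counting used strand, so reads in the overlap may belong to either gene.

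The 615-residue Nr1d1-201 held 91.1% of the Nr1d1 level in replicate 1 and 100% in replicate 2. The 576-residue Nr1d2-201 held 87.4% and 88.7% of the Nr1d2 level, and noncoding transcripts of Nr1d2 held 12.6% and 11.4%. Of 15 other clock genes 8 reached 1 TPM in both libraries, with a median of 1.58 TPM. Nfil3, a repressor of D-box genes, was the highest at 37.7 TPM in replicate 1 and 69.4 TPM in replicate 2, and was also the farthest apart at a log2 ratio of -0.99. The repressors Bhlhe40 and Bhlhe41 had 10.9 and 13.5 TPM and 11.7 and 8.83 TPM, and the activator Dbp had 10.7 and 9.62 TPM. Of 10 with a mean count of at least 50, 3 lay above 0 and 7 below, beside 5092 and 5353 of all genes. With TPM + 1 the numbers were 6 and 4, beside 6363 and 4056 of all genes. None of the 10 was 2-fold apart, beside 3.96% of all genes that were.

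Vdr (chromosome 15, 97854425 to 97910630, minus strand) was barely detected. It had 0.07 TPM in replicate 1 and 0.06 TPM in replicate 2, from 6 and 8 counts, beside 0.035 and 0.0225 TPM for the 3 counts that a count of 0 allows. The second estimate of the authors, a posterior mean, put Vdr at 1.45 and 0.99 TPM, so its level depended on the estimate. Of that estimate only 5.01% in replicate 1 and 6.47% in replicate 2 was on Vdr-201, and the rest was on transcripts with 0 counts. All of its counts were assigned to Vdr-201, the 422-residue form, and with so few the share says little. The log2 ratio was 0.03, with an interval of -1.77 to 1.75.

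The genes that make or break down the receptors' ligands were mostly low, with 5 of 20 at 1 TPM or more in both libraries and a median of 0.0725 TPM. Cyp27b1, which makes active vitamin D, and Cyp24a1, which breaks it down and is a Vdr target, had 0 counts in both libraries and are named after this was seen. Hmox1, which degrades heme, had 390 TPM in replicate 1 and 192 TPM in replicate 2, and Alas1, the first enzyme of heme synthesis, had 205 and 161 TPM. Cyp27a1, which makes 27-hydroxycholesterol, had 34.6 and 44.1 TPM. Of the 5, 2 lay above 0 and 3 below, beside 5092 and 5353 of all genes.

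Coregulators carry a receptor's signal to chromatin, and 20 of 21 reached 1 TPM in both libraries, with a median of 11.2 TPM. The corepressor Ncor1 had 47.0 TPM in replicate 1 and 67.3 TPM in replicate 2, and Tbl1x, a subunit of its complex, had 27.7 and 36.0 TPM. The arginine methyltransferase Prmt1 had 61.1 and 42.5 TPM and the coactivator Ncoa3 had 25.8 and 32.0 TPM. Of the 20, 4 lay above 0 and 16 below, with a median log2 ratio of -0.21, beside 5092 and 5353 of all genes. Scaled by total count, 8 lay above 0 and 12 below, beside 6857 and 3588 of all genes. Ppargc1b (PGC-1β) was the only 1 past 2-fold, with 1.26 and 2.75 TPM (-1.23), beside 3.96% of all genes past it in either direction. Its relative Ppargc1a, named after its values were seen, had 0 counts in both libraries.

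Set among the 49 nuclear receptor genes, the 10 held 79.3% of the family's summed level in replicate 1 and 74.9% in replicate 2, of 302.75 and 256.37 TPM. The 10 were chosen with earlier results of these data known, so this share and their places may not be independent of the choice. By mean level they filled 8 of the 10 highest places. The other places went to Esrra, an orphan receptor of mitochondrial genes, with 16.8 TPM in replicate 1 and 15.3 TPM in replicate 2, and to Nr4a3, an immediate-early orphan receptor, with 9.36 and 13.9 TPM. The 5 highest receptors by mean level were all among the 10, but the ranges of Rxra and Esrra overlapped. In replicate 2 Esrra, at 15.3 TPM, stood above Rxra, at 14.9 TPM.

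Ppard was followed by Rarg, a retinoic acid receptor, with 7.32 TPM in replicate 1 and 5.95 TPM in replicate 2, so the ranges of the 2 overlapped. Nr1d1 stood between Esr1, an oestrogen receptor, with 1.19 and 2.28 TPM, and Nr6a1, with 1.02 and 0.81 TPM, and Vdr between Nr1i3, with 0.08 and 0.06 TPM, and Pgr, with 0.03 and 0.01 TPM. Of the 39 other family members 11 reached 1 TPM in both libraries and 18 had 0 counts in both, with a median of 0.005 TPM. Not all of the 18 were at 0 in the second transcript table. There Esrrg had 0.67 TPM in replicate 1 and 0.32 TPM in replicate 2, and Rorb had 0.033 and 0.019 TPM. Both are named after their values were seen. Among 13 with a mean count of at least 50, 7 lay above 0 and 6 below, beside 5092 and 5353 of all genes. None was 2-fold or more higher in replicate 1, and 2 were lower, Esr1 at -1.11 and Nr2c2, named after its values were seen, at -1.01. Of all genes 2.23% were 2-fold or more higher and 1.73% lower. Scaled by total count or with TPM + 1, 0 of the 13 were past 2-fold.

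**Figure D5:**
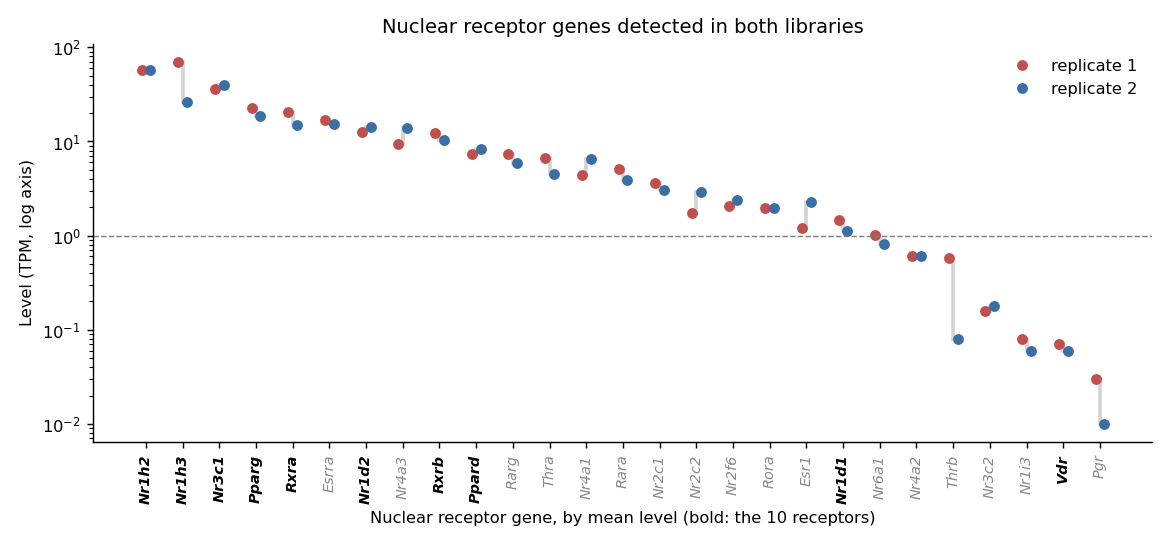
Level of each nuclear receptor gene with counts in both libraries, in TPM (log axis), ordered by mean; red is replicate 1, blue replicate 2, grey lines join them, bold names are the 10 receptors and the dashed line marks 1 TPM. The 10 receptors hold the 5 highest places by mean, Nr1d1 lies just above 1 TPM and Vdr at 0.07 and 0.06 TPM.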

How the data were processed

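The deposited files comprise, per library, 1 gene table and 2 transcript tables. The gene and first transcript tables carry RSEM's column names and, per the file headers, hold expected counts, TPM, credibility bounds of TPM and each transcript's percent of its gene's TPM. The other transcript table carries kallisto's column names and, per the file headers, holds estimated counts and TPM. Per the deposited descriptions the assembly was mm10 and the annotation GENCODE M21. Versions of the programs and the strand setting are not given in the sources used here.

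Symbols matched 55450 of 55536 mouse genes. Entries that were not mouse genes held 0.141% (replicate 1) and 0.134% (replicate 2) of counts and stayed out of library sizes. Expected counts were rounded. CPM used TMM factors from edgeR 4.0.16 (R 4.3.3), over genes that had at least 10 counts in each library, and DESeq2 1.42.0 size factors were an alternative. Ratios were computed where the mean count was 50 or more. Intervals are exact binomial ones at 95%. Reads carried no molecular identifiers and are not independent molecules, so intervals and the floors of 3 counts cover counting error alone. The ratio calculation was tested on simulated data. With 1 group and 2 libraries no test was run. Protein lengths came from annotated coding sequences in GENCODE M21, and promoter windows from RefSeq on GRCm38.p6. Scripts ran in Python 3.11.15 with scipy 1.17.1, pandas 2.3.3, numpy 2.4.6 and matplotlib 3.10.9.

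The members and the 8 pathway lists with 147 different genes were chosen with earlier results of these data known. Named are the 10 receptors, the 4 genes of highest mean TPM in every list together with its gene farthest from equality between libraries (mean count of 50 or more), genes overlapping a receptor, and neighbours of the receptors in the order of the family. Exceptions are marked in the text, and 1 gene of the ligand list is not reported here. Likeness of pattern was not ranked, since 2 libraries of 1 group give no pattern. Per1 is in 2 lists (glucocorticoid targets and clock) and so is Fkbp5 (glucocorticoid targets and chaperones). Alternatives covered the quantification, the estimate, the scaling, the filters, the thresholds and leaving out a library.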

Additional observations from a re-analysis of the deposited data

How the results depend on the processing

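Of 254 alternative values, 207 stayed within the tolerance of their main value and 47 moved, and no ratio of 2-fold or more changed sign. A receptor whose libraries lay far apart stayed within it more easily. With 1 library left out, Nr1h3 at 26.1 or 69.7 TPM counted as the same. Nr1h2 at 59.7 TPM by the posterior mean, beside 57.7 TPM, counted as moved. Leaving out 1 of 2 libraries always keeps a mean within 1 SD. The count of 207 is therefore no measure of agreement between the libraries. The median level of the 10 receptors was 13.5 TPM in the second transcript table, beside 15.6 TPM. At a minimum of 5 TPM only 3 of the 39 other nuclear receptors passed in both libraries, beside 11 at 1 TPM. By the second quantification 8 of the 10 receptors passed 1 TPM in both libraries, since Nr1d1 fell under it in replicate 2. Without replicate 1 the median level was 14.7 TPM and without replicate 2 it was 16.5 TPM. Scaling by total count moved the median log2 ratio of all genes to 0.14, and Nr1h3 was then at 1.47, while Nr1h2 changed sign from -0.09 to 0.06. Vdr, with few counts, changed sign from 0.03 to -0.04 in the second transcript table. Nr1h3 stayed the only receptor past 2-fold under every scaling, filter and quantification tried. The ratio between libraries has no value without a replicate. The leading transcript of Pparg and, in replicate 2, of Rxrb depended on the quantification. The posterior mean estimates put the leaders of Rxrb (46.7%) and Pparg (46.7%) under 50% as well, so that Nr1h2 (40.7%) was then not alone, and in the second transcript table that of Rxrb (43.9%) was under 50%. Depth limits Vdr (6 and 8 counts) and Nr1d1 (76 and 90 counts).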
